A study of Mus musculus with 2 samples.

Results

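BCL11 factors and their COUP-TF partners were examined in mouse embryonic fibroblasts (MEFs) with and without BCL11B. The 5 genes were Bcl11a, Bcl11b, Nr2f1, Nr2f2 and Nr2f6, taken by name, and all 20 probe sets that the platform annotation paired with 1 of these genes alone were kept, out of 18193 named genes and 45101 probe sets on the array. A probe set is a group of short oligonucleotides that together measure 1 transcript. The wild-type group was 1 array of BCL11B+/+ MEFs and the knockout group 1 array of BCL11B-/- MEFs, both primary cells from C57BL/6 embryos at embryonic day 12.5. The labels give neither the number nor the sex of the embryos behind each culture. Both cultures were used at passage 2 and had been for 12 h in adipocyte differentiation medium with 10 μM pioglitazone, 10 μg/ml insulin, 1 μM dexamethasone, 0.5 mM methylisobutylxanthine and 10% serum, so neither array shows untreated cells. Values are log2 expression after the robust multi-array average, in which 1 unit is a 2-fold change. Since each genotype had 1 array, no test could be made, and differences (BCL11B-/- minus BCL11B+/+) are described by their size against 1.5-fold, or 0.585 log2 units.

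BCL11A and BCL11B, also called CTIP1 and CTIP2, are zinc finger proteins that bind DNA and recruit co-repressors. They were named CTIP for their binding to the COUP-TFs, orphan nuclear receptors that mostly repress transcription and are encoded by Nr2f1 (COUP-TFI), Nr2f2 (COUP-TFII) and Nr2f6 (also called EAR2). BCL11B is best known from T cells, skin and neurons, BCL11A from B cells and from the silencing of fetal globin genes, and COUP-TFII from veins and the mesenchyme of many organs.

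Against BCL11B+/+ MEFs, BCL11B-/- MEFs had lower Bcl11b and higher Nr2f1, and Bcl11a, Nr2f2 and Nr2f6 lay within 1.5-fold when each gene was read on the probe set that had its highest mean over both arrays. Of the 5 genes 1 was thus at least 1.5-fold higher, 1 was at least 1.5-fold lower and 3 were neither. Among all 12331 genes with a mean of at least 5, 1.61% were higher and 1.75% were lower by the same rule. Of the 20 probe sets 2 were higher and 4 were lower by 1.5-fold, where 1.05% and 1.09% of all 45037 probe sets other than controls were. The 4 lower probe sets and the 1 lower gene were all Bcl11b, the deleted gene, so the lower counts are no result about the other members. No array of the same genotype was repeated, so the only yardstick of error is technical. It was taken over 5543 genes with several probe sets at a mean of at least 5. The differences read on the probe sets of a gene scattered with a pooled SD of 0.145, which holds no variation between embryos or cultures.

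**Figure D1:**
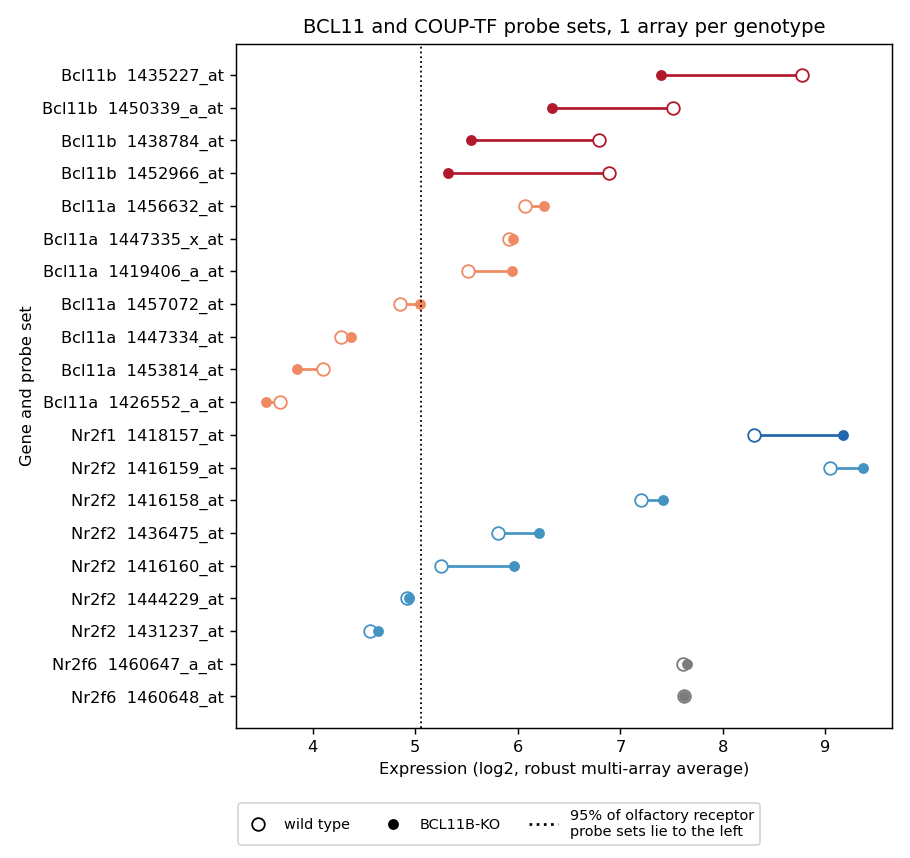
Log2 expression (horizontal axis) of the 20 probe sets of the 5 genes (vertical axis, gene and probe set), with an open circle for the BCL11B+/+ array (wild type) and a filled circle for the BCL11B-/- array (BCL11B-KO), each a single reading with no error bar. All 4 Bcl11b probe sets have the filled circle on the left, and it is on the right for Nr2f1 and all 6 Nr2f2 probe sets, and the dotted line at 5.05 marks the 95th percentile of olfactory receptor probe sets in BCL11B-/- MEFs.

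Bcl11b is the deleted gene, and its readings were lower in the array labelled BCL11B-/-. RefSeq places it on GRCm38.p6 at chr12:107910403-108004145. Probe set 1435227_at read 8.77 in BCL11B+/+ and 7.40 in BCL11B-/- MEFs, a difference of −1.37 or 2.59-fold. Probe set 1450339_a_at, the only one of the 4 designed on a RefSeq mRNA, read 7.51 and 6.33, a difference of −1.18. All 4 probe sets were lower by a similar factor, and the SD of the 4 differences was 0.17. Probe set 1438784_at read 6.79 and 5.54, and probe set 1452966_at, with the largest difference of −1.57, read 6.89 and 5.32. The signal that remained in BCL11B-/- MEFs was 33.7 to 44.2% of that in BCL11B+/+ MEFs. Part of such a signal can be background, so these are not shares of transcript. The signal is of RNA, and the paper reports no detectable BCL11B protein in BCL11B-/- MEFs by immunoblot. Among genes with a mean of at least 5, Bcl11b was the 25th lowest. The sources used here do not name the deleted exons, and probes that lie outside them would not read the deletion itself.

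The level of a probe set without transcript was taken from 44 probe sets of olfactory receptor genes, which are used in the nose. Their 95th percentile was 4.95 in BCL11B+/+ and 5.05 in BCL11B-/- MEFs, and their highest value was 5.19 in both. The 3 control probe sets for a bacterial trp gene read 2.77 to 3.62 in BCL11B+/+ and 2.57 to 3.55 in BCL11B-/- MEFs. All 4 Bcl11b probe sets thus stayed above the olfactory range in BCL11B-/- MEFs, the lowest only by a small margin. A reading above that range does not by itself show that transcript remained. The affinity of probes differs, so the level of 1 probe set says nothing about its abundance beside another.

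Bcl11a, the paralog, was within 1.5-fold on all 7 of its probe sets, 5 of them higher and 2 lower in BCL11B-/- MEFs. The brightest, 1456632_at, stood at 6.07 in BCL11B+/+ and at 6.26 in BCL11B-/- MEFs, a difference of 0.19. Probe set 1447335_x_at read 5.91 and 5.95, and its suffix marks probes that can also bind other sequences. Probe set 1419406_a_at, designed on a RefSeq mRNA, read 5.51 and 5.95, and its difference of 0.44 was the largest of the gene. These 3 were the Bcl11a probe sets above the 95th percentile of olfactory receptors on both arrays. The other 4 read between 3.68 and 4.85 in BCL11B+/+ and between 3.54 and 5.05 in BCL11B-/- MEFs, where a difference cannot be told from background. The mean over the 7 differences was 0.08 with an SD of 0.23, which is wider than the pooled SD between probe sets. The 2 SDs are not alike, since the pooled SD left out probe sets as dim as these 4.

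Nr2f1, which patterns the developing cortex, was higher in BCL11B-/- MEFs. Its only probe set, 1418157_at, read 8.30 in BCL11B+/+ and 9.17 in BCL11B-/- MEFs. The difference of 0.86, or 1.82-fold, was 5.95 times the pooled SD between probe sets and the 73rd highest among the 12331 genes. With 1 probe set on 1 array per genotype, no other reading of this transcript was at hand.

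Nr2f2 was above its BCL11B+/+ level on all 6 probe sets, but by very different amounts. The brightest, 1416159_at, went from 9.04 in BCL11B+/+ to 9.36 in BCL11B-/- MEFs, a difference of 0.32 or 1.25-fold. Probe set 1416158_at read 7.20 and 7.42, and probe set 1436475_at read 5.81 and 6.21. Probe set 1416160_at read 5.25 and 5.97, and its difference of 0.71, or 1.64-fold, was the only one of the 6 past 1.5-fold. The 3 probe sets 1416158_at, 1416159_at and 1416160_at share the accession they were designed on and still differed by 0.21, 0.32 and 0.71. Probe sets 1444229_at and 1431237_at lay in the olfactory range on both arrays, with differences of 0.02 and 0.08. The 6 probe sets gave a mean of 0.29 and an SD of 0.25, and they are readings of the same pair of RNA samples, not replicates.

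Nr2f6, which is also known for restraining T cell activation, showed no difference of size. Probe set 1460647_a_at read 7.61 in BCL11B+/+ and 7.65 in BCL11B-/- MEFs. Probe set 1460648_at read 7.62 on both arrays, with identical deposited values. Such equal pairs were common, at 6.59% of the 45037 probe sets, so the difference of 0 is not a mark of precision. Across the 3 COUP-TF genes 8 of 9 probe sets were above 0, none was below and 1 was equal, where 47.2% of all 45037 probe sets were above 0. Of the 8, 6 were of Nr2f2 alone, and 2 of those 6 lay in the olfactory range.

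**Figure D2:**
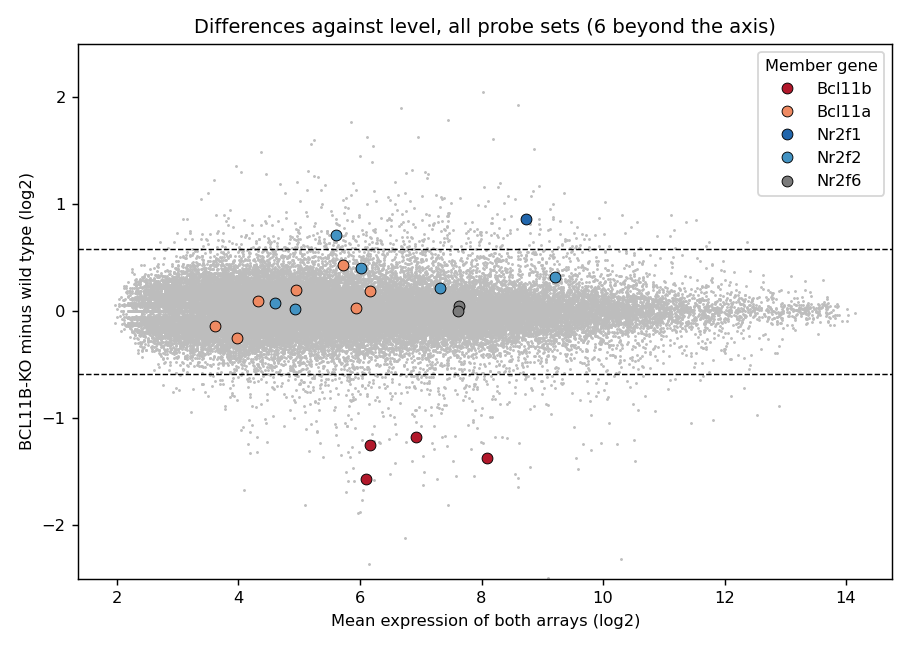
Difference between BCL11B-/- and BCL11B+/+ MEFs (vertical axis, log2) against the mean of both arrays (horizontal axis, log2) for all probe sets other than controls (grey) and those of the 5 genes (coloured), with dashed lines at 1.5-fold. The 4 Bcl11b probe sets lie below the lower line, Nr2f1 and 1 probe set of Nr2f2 lie above the upper line, and 6 probe sets fall outside the axis limit of 2.5.

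The upstream sequences of Nr2f1 and Nr2f2 are shown because these were the COUP-TF genes with the higher readings. They are the 250 bases before the start of transcription in RefSeq on GRCm38.p6, at chr13:78198874-78199123 for Nr2f1 and chr7:70366747-70366996 for Nr2f2, read 5′ to 3′ on the minus strand that holds both genes. Capitals mark the GC box GGGCGG or its reverse complement CCGCCC, in view of the binding of BCL11B to GC-rich DNA.

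Nr2f1: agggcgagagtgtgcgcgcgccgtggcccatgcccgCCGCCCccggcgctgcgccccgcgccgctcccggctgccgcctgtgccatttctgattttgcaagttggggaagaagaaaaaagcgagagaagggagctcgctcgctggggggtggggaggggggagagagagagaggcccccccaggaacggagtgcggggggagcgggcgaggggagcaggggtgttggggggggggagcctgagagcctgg

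Nr2f2: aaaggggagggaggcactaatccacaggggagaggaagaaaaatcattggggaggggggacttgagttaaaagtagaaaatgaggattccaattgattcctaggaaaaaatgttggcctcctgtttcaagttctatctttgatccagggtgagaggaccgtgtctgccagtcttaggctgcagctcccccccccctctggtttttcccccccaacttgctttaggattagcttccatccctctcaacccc

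The Nr2f1 window held 1 GC box and 72.0% G and C, and the Nr2f2 window held no GC box and 50.0%. The second RefSeq start of Nr2f1 had no GC box in its window. Of all 32851 promoter windows 32.7% held a GC box on either strand, and their median share of G and C was 52.4%. The windows of Bcl11a and Nr2f6 held 2 and 7 GC boxes, counted with overlap, and that of Bcl11b none. These windows and that of the second Nr2f1 start overlap the annotated span of their own gene. Those of Bcl11a and Bcl11b lie wholly inside it, so they do not stand for the sequence before the outermost start. The half-site AGGTCA, which COUP-TFs and many other nuclear receptors bind, or its reverse complement TGACCT was in none of the 6 windows of the 5 genes, and 14.0% of all windows held it. A match of letters is no binding site, and no match concerns these windows only.

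The genes around each member were mostly within 1.5-fold, as most genes were. Of the 5 nearest protein-coding genes on each side of the members, 50 in all, 37 were measured at a mean of at least 5. Of these 1 was at least 1.5-fold higher and none lower, where 1.61% and 1.75% of all 12331 genes were. Around Bcl11b the 6 such genes lay between −0.25 for Setd3, its neighbour on 1 side, and 0.28 for Vrk1, a protein kinase gene 1832085 bp away, whose second probe set differed by −0.05. Setd3, an actin histidine methyltransferase gene, went from 8.80 to 8.54 between BCL11B+/+ and BCL11B-/- MEFs, but its second probe set differed by 0.27 in the other direction. Around Nr2f1 the 8 genes lay between −0.34 and 0.24, with Arrdc3, the next gene on 1 side, at 0.24. On the other side Fam172a, 22731 bp away and the nearest, read 8.44 on both arrays, and Pou5f2, 162675 bp away, differed by 0.11. The noncoding gene A830082K12Rik, whose span overlaps that of Nr2f1, read 4.97 and 5.29, barely above the olfactory range. The 1 gene past 1.5-fold was Synm, which encodes the intermediate filament protein synemin and lies 5 genes and 2592204 bp from Nr2f2. Its brighter probe set read 6.08 and 6.99, a difference of 0.91, and its other probe set differed by −0.04. Efemp1, an extracellular matrix gene 4 genes and 4679596 bp from Bcl11a, differed by 0.53. The genes next to Bcl11a, Papolg and Fancl, differed by −0.20 and 0.18, Arrdc4 next to Nr2f2 by 0.10 and Ocel1 next to Nr2f6 by 0.01.

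**Figure D3:**
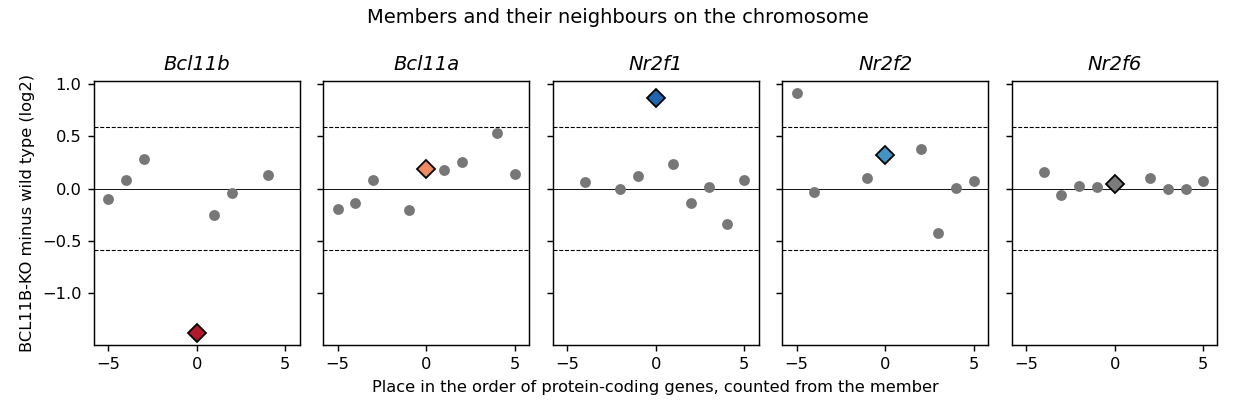
Difference between BCL11B-/- and BCL11B+/+ MEFs (vertical axis, log2) for each of the 5 genes (diamonds) and its nearest protein-coding genes with a mean of at least 5 (grey points), by their place in gene order (horizontal axis), with dashed lines at 1.5-fold. Bcl11b at −1.37 and Nr2f1 at 0.86 stand apart from their neighbours, and Synm at 0.91 is the only neighbour past a line.

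Among the other nuclear receptors, 41 of 46 had a probe set of their own and 24 had a mean of at least 5. None of the 24 was at least 1.5-fold higher, 1 was lower and 23 were neither, with a median of −0.04 beside 0 over all 12331 genes. By the same rule 1.61% of those 12331 genes were higher and 1.75% were lower. The 1 lower receptor was Pparg, the receptor that pioglitazone activates, with 7.11 in BCL11B+/+ against 6.40 in BCL11B-/- MEFs and a single probe set. The highest was Nr4a2, an immediate early orphan receptor gene, with 0.54, and its 6 probe sets ranged from −0.02 to 0.54. The retinoid X receptor genes Rxra and Rxrb, which encode dimer partners of COUP-TFs, differed by −0.18 and 0.01. The orphan receptors Nr2c1 and Nr2c2, of the same subfamily as the COUP-TFs, differed by −0.11 and −0.01. The glucocorticoid receptor gene Nr3c1, through which dexamethasone acts, read 8.56 and 8.49.

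Co-repressors that BCL11 proteins or COUP-TFs are known to recruit showed no difference past 1.5-fold. Few genes did, since 1.61% of all 12331 were higher and 1.75% were lower, so the list is not set apart by this. All 16 that were measured, of 19 listed, had a mean of at least 5, and their median was 0.07. They ranged from −0.18 for the deacetylase gene Sirt1, which read 8.37 in BCL11B+/+ and 8.19 in BCL11B-/- MEFs, to 0.26 for Chd4, the remodeler of the nucleosome remodeling and deacetylation (NuRD) complex, which read 8.73 and 8.99. Zfpm2, a COUP-TFII cofactor gene, differed by 0.02.

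Genes known as targets of BCL11 proteins or COUP-TFs in other tissues were mostly within 1.5-fold. Of 13 measured genes 7 had a mean of at least 5, of which none was higher, 1 was lower and 6 were neither, with a median of 0.25. Over all 12331 genes 1.61% were higher and 1.75% were lower. Wnt10b, which COUP-TFII is known to repress, had a single probe set at 5.69 in BCL11B+/+ and at 5.87 in BCL11B-/- MEFs, a difference of 0.19. By real-time PCR the paper reports significantly higher Wnt10b in BCL11B-/- MEFs, lasting through adipogenesis. Cdkn1a and Cdkn1c, cell cycle inhibitor genes that BCL11B is known to repress, went different ways. Cdkn1a read 10.42 and 10.67, a difference of 0.25, while Cdkn1c was lower at 12.67 and 11.96, a difference of −0.71. The study picked Cdkn1c from these arrays, so its direction is not independent evidence. Angpt1, the ligand of the TIE2 receptor, and the neuropilin genes Nrp1 and Nrp2 have been linked to COUP-TFII in vessels, and they differed by 0.48, 0.26 and 0.51. For Nrp2 the 4 probe sets ranged from 0.06 to 0.71 and for Nrp1 from 0.18 to 0.61.

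**Figure D4:**
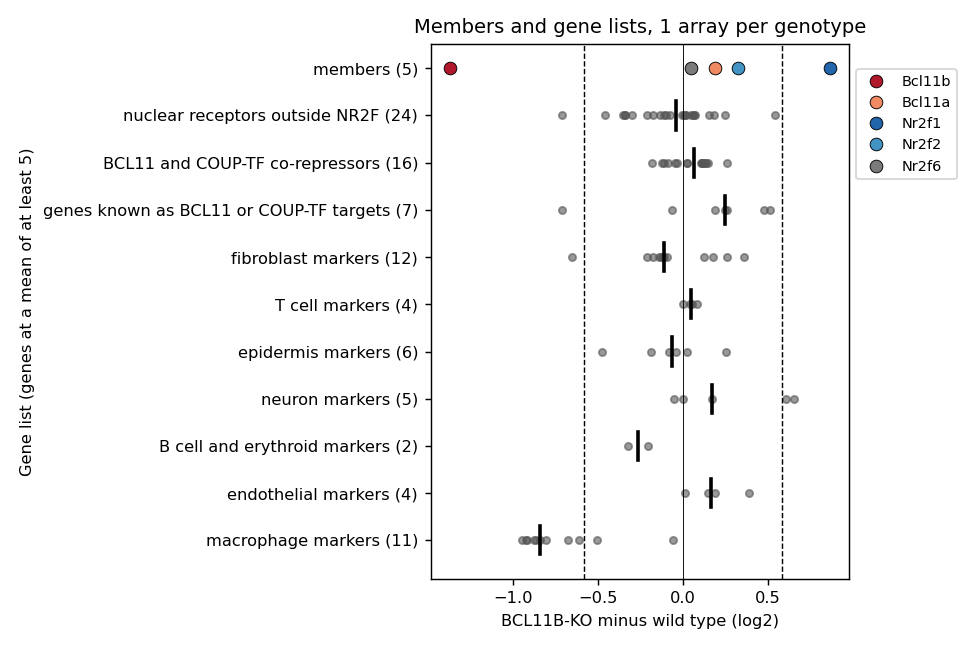
Difference between BCL11B-/- and BCL11B+/+ MEFs (horizontal axis, log2) for the 5 genes (top, coloured) and for genes of 10 lists (sex-linked genes not drawn) with a mean of at least 5 (vertical axis, number of genes in brackets), with black bars for list medians and dashed lines at 1.5-fold. Bcl11b at −1.37 lies left and Nr2f1 at 0.86 right of every listed gene drawn, while the macrophage genes have a median of −0.84.

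The cultures were fibroblasts by their markers, with all 12 fibroblast genes at a mean of at least 5 and a median level of 11.93 in BCL11B+/+ and 11.97 in BCL11B-/- MEFs. Thy1, a surface glycoprotein gene, was the 1 of the 12 past 1.5-fold, with −0.65. For this and the lists below, the shares over all 12331 genes were 1.61% higher and 1.75% lower. In bulk RNA, fewer cells of a type and less RNA per cell cannot be told apart. Markers of the cells in which BCL11B is best known were mostly near background or within 1.5-fold. Of 10 measured T cell genes 4 had a mean of at least 5, with differences from 0 to 0.08, and of 11 epidermis genes 6 did, with differences from −0.48 for Dsp to 0.25 for Perp and none past 1.5-fold. Of 12 neuron genes 5 did, and 2 of these were higher, Tubb3 with 0.61 and Stmn2 with 0.65. The second probe set of Stmn2 differed by 0.20. The median level of the neuron list was 4.68 in BCL11B+/+ and 4.65 in BCL11B-/- MEFs, and 6 of its 12 genes lay in the olfactory range on both arrays. Of 10 measured B cell and erythroid genes 8 lay in the olfactory range on both arrays, among them the B cell genes Cd79a and Ms4a1. The 2 with a mean of at least 5 were Ebf1 and Klf1, neither past 1.5-fold. Ebf1 was far above that range, with 9.34 on the wild-type array, 9.02 on the knockout array and a difference of −0.32. Klf1 stood at 5.16 and 4.95, a difference of −0.21. Of 10 endothelial genes 6 lay in the olfactory range on both arrays, and none of the other 4 was past 1.5-fold. All 11 macrophage genes were lower in BCL11B-/- MEFs, and 9 of them (Laptm5, Tyrobp, Lyz2, C1qa, Csf1r, C1qb, Ptprc, Cd68 and Adgre1) by 1.5-fold, from −0.61 for Adgre1 to −0.95 for Laptm5, with a median level of 7.82 in BCL11B+/+ and 7.18 in BCL11B-/- MEFs. Of its defining genes, Csf1r read 8.85 and 7.99 and Adgre1 read 7.45 and 6.83, all above the olfactory range. The 2 arrays also differed in sex-linked genes, with Xist at −5.99 and the Y-linked Uty, Kdm5d and Eif2s3y at 0.81, 0.97 and 1.08. Xist read 10.80 in BCL11B+/+ and 4.80 in BCL11B-/- MEFs, the latter in the olfactory range. The Y-linked genes were above that range on both arrays. Eif2s3y read 7.89 and 8.97, Kdm5d 6.84 and 7.81 and Uty 6.80 and 7.61. BCL11B+/+ MEFs thus had both Xist and Y-linked signal. The part of these differences in the readings of Bcl11b, Nr2f1 and Nr2f2 was not tested. With 1 array per genotype, that part cannot be told apart from genotype.

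The genes whose pair of readings lay nearest to that of Bcl11b on 1435227_at, by Euclidean distance over the 2 arrays, were Ramp3, Dner, Saa3, Zfp386 and Tril, at distances of 0.12 to 0.31 log2 units. Ramp3, a partner of calcitonin family receptors, read 8.65 in BCL11B+/+ and 7.42 in BCL11B-/- MEFs. Dner, which encodes a neuronal Notch ligand, read 8.60 and 7.38. Over 2 arrays any gene of like level and difference is near, and the distances describe nothing more.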

How the data were processed

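From total RNA of each culture (100 ng) cDNA was made. Amplified RNA labelled with biotin was then put on a whole-genome mouse expression array from Affymetrix, 1 for each of 2 genotypes. The authors made log2 values with the robust multi-array average, which corrects background, equalizes the distributions of both arrays and summarizes probes. The submitters' processing notes name R 3.0.3, and a genome build is not given in the sources used here. Equalized distributions hide any change of total mRNA, and dim differences are pulled toward 0.

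Of 45101 probe sets 64 were controls, 34958 had 1 gene in the platform annotation, which alone were used for gene names, 932 had several genes and 9211 none. All 5 genes matched RefSeq (GRCm38.p6) by Entrez identifier. Genes were read on the probe set of highest mean over both arrays, and those whose mean did not reach 5 were not counted. No p-value could be computed from single arrays, and the number of arrays limits the precision. Motifs were searched on both strands of promoter windows, the GC box being added after the half-site had been seen. Named were the 5 genes, list members past 1.5-fold and otherwise up to 2 at either end of a list, neighbours past 1.5-fold or adjacent, and the 5 genes nearest to Bcl11b, and a few others were named after their values were seen. The encoded proteins were not analysed here. The members and lists were chosen with earlier results of these data known. Alternatives were other choices of probe set, loess with a span of 0.4, a median shift, other filters and other size rules. The software was Python 3.11.15 with statsmodels 0.14.6, pandas 2.3.3, matplotlib 3.10.9 and numpy 2.4.6.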

Additional observations from a re-analysis of the deposited data

How the results depend on the processing

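Across 25 alternative values of the log2 differences of the 5 genes, which used other choices of probe set, a loess fit or a median shift, none moved by as much as the pooled SD between probe sets of 0.145 and none of the 2 past 1.5-fold changed sign. Bcl11b ranged from −1.37 to −1.31, Nr2f1 from 0.86 to 0.87, Nr2f2 from 0.27 to 0.33, Bcl11a from 0.08 to 0.19 and Nr2f6 from 0 to 0.06. Nr2f1 has 1 probe set, so a choice of probe set could not move it. The median difference was 0, so that shift moved nothing, and the loess fit ranged from −0.011 to 0.014. Of 26 alternative counts 22 were within 1.5 times the main count. By construction a looser or stricter size rule gave the other 4: at 1.2-fold 2 genes and 5 probe sets were higher, and at 2-fold 0 genes and 0 probe sets were higher. The count lower by 2-fold was 1 gene and 4 probe sets, all of Bcl11b. No replicate could be left out. No paired analysis was possible because each genotype had 1 array. Signal near the olfactory range limits 4 of 7 Bcl11a and 2 of 6 Nr2f2 probe sets.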
